A study of Mus musculus with 12 samples.

Results

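Gene expression was compared between the distal small intestine of mice labelled Bmpr1a cKO and that of wild-type (WT) mice. All 6 libraries labelled distal were taken, 3 cKO and 3 WT, of the 12 in the series, and all 17175 genes of the deposited table were tested. The other 6 libraries came from the proximal segment of the same genotypes and entered the shared estimate of spread. A cKO is a conditional knockout, in which a gene is deleted in chosen cells. Strain, age, treatment and the Cre driver are not given in the sources used here. The labels state neither whether a library came from 1 animal nor which cells the tissue piece held. Each p-value thus covers the variation among these libraries alone, which may be technical in WT and in part in cKO. The cKO libraries did not all share 1 source, since only those numbered 1 lacked Y-linked reads (given below). By its stated design the series examined epithelial BMP signalling and villus length along the small intestine.

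Bone morphogenetic proteins (BMPs) are secreted ligands that bind pairs of type I and type II receptors. Bmpr1a encodes a type I receptor, which phosphorylates SMAD1, SMAD5 and SMAD9, and these enter the nucleus with SMAD4 and switch on genes such as the Id family and the inhibitory Smad6 and Smad7. In the intestine BMP signals are strongest toward the villus and are opposed near the crypt base, where Wnt signals maintain stem cells.

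The libraries held 11242024 to 14504077 recovered reads in WT distal and 15225731 to 17722756 in cKO distal. Reads of mitochondrially encoded genes took 37.7%, 29.5% and 22.3% of the WT distal libraries 1 to 3, and 11.5%, 9.95% and 27.7% of the cKO distal libraries 1 to 3. The cKO libraries numbered 1, distal and proximal, had no read of 4 Y-linked genes that were examined, Ddx3y, Kdm5d, Uty and Eif2s3y. Every other library, WT or cKO, had at least 158 reads of each. Values below are scaled counts, in which 1 was added to the reads before scaling so that a gene with no read stands near 1, given for libraries 1, 2 and 3 of a group in that order or as mean ± SD with n = 3. A single value in brackets after a gene is its log2 fold change, cKO over WT, on the log2(value + 1) scale. A value in brackets after a library that was left out is the limma adjusted p of that fit. The epithelial marker Epcam stood at 15355, 13078 and 22494 in the WT libraries and 42646, 29377 and 26961 in the cKO libraries. Vil1, the villin of the brush border, stood at 25442, 34842 and 46134 in the WT libraries and 59564, 46985 and 29761 in the cKO libraries, and Fabp6, the ileal bile acid binding protein, stood at 30792, 18203 and 44132 in the WT libraries and 65296, 90664 and 24901 in the cKO libraries. These markers of intestinal and ileal epithelium were abundant in all 6 libraries. Bmpr1a (chromosome 14, 34410734 to 34503341, minus strand, mm10 with GENCODE M21 genes) stood at 438, 527 and 631 in the WT libraries and 511, 668 and 486 in the cKO libraries (log2 fold change 0.06 with SE 0.19, adjusted p = 0.852 in limma). A count over the whole gene includes exons that a deletion may leave, so this value checks neither the deletion nor the labels.

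Of all genes, 25% were called at an adjusted p under 0.05 (limma, Benjamini-Hochberg), 13.3% higher and 11.7% lower in cKO. The 3 cKO and 3 WT libraries did not overlap for 34.8% of genes, 18.9% with cKO higher and 15.9% with cKO lower. The number called was 4297, and it was 2672 without WT distal 2, 2466 without cKO distal 1 and 2160 without both cKO libraries numbered 1. The median log2 fold change over all genes was 0.06. General epithelial genes, such as those for cell junctions, stood higher in cKO: 12 of 19 rose and 0 fell (median 0.91). Their summed level was 146401 to 244831 in WT and 227026 to 366219 in cKO libraries. Cdh1, which encodes E-cadherin, stood at 4063, 3944 and 8073 in the WT libraries and 22981, 12791 and 14670.3 in the cKO libraries (log2 fold change 1.69 with SE 0.33, adjusted p = 0.00246 in limma). Scaling the libraries to these genes moved the median over all genes to -0.77 and left 404 genes higher and 7274 lower. Counts under that scaling are therefore given beside each list that holds genes called higher. The general epithelial list itself had 3 up and 2 down under it (median 0.01). That count cannot test the rise of the list, because the same genes set the scaling. The list had 0 called with the mitochondrial share as a covariate, and 7 up without both cKO libraries numbered 1.

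The 8 largest rises and 8 largest falls were ranked among well-expressed genes whose groups did not overlap, with predicted genes left out. They lay in single metabolic and secreted genes on one side and mostly in B cell genes on the other. Eno1b, a near copy of the enolase gene Eno1, read 2.44, 3.08 and 11.6 in the WT libraries and 2467, 1219 and 1282 in the cKO libraries (log2 fold change 8.13 with SE 0.41, adjusted p = 2.47e-07 in limma). Reads of such copies can be divided wrongly, and Eno1 itself stood at 8000.1, 8701 and 9677 in the WT libraries and 11167, 5912 and 5718 in the cKO libraries (log2 fold change -0.28 with SE 0.26, adjusted p = 0.469 in limma). Mbl2, a mannose-binding lectin that opsonises microbes, read 14.6, 27.7 and 60.1 in the WT libraries and 1129, 665 and 895 in the cKO libraries (4.86). F3, the tissue factor that starts coagulation, read 13.4, 22.6 and 44.3 in the WT libraries and 341, 259 and 285 in the cKO libraries (3.56). In each of these genes other than Eno1 the lowest cKO library lay far above the highest WT library. Bmp3 (3.95), Bbox1 of carnitine synthesis (3.78), the membrane carbonic anhydrase Car4 (3.60), the carboxylesterase Ces1d (3.40) and the aldo-keto reductase Akr1c19 (3.25) completed the upper end. At the lower end stood St6galnac1 (chromosome 11, 116765025 to 116775507), which adds sialic acid to mucin glycans. It read 297, 179 and 157 in the WT libraries and had 0 reads in all 3 cKO libraries, at least 53.6-fold lower against a floor of 3 reads per library. Also at that end were Ighg2b (-8.77), Nuggc (-6.86), Igkv6-23 (-7.00), Mef2b (-6.43), Igkv9-120 (-6.29) and Fcer2a (-6.12), all of B cells or their antibodies. Immunoglobulin segments share sequence, so reads of single segments are uncertain.

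The BMP-induced genes were led by Id3, Id1, Smad6 and Id2. Promoters of 4 of the members that fell, from the RefSeq promoter table (GRCm38.p6, the build also called mm10) are shown because they are the nearest regulatory sequence of the genes that carry the BMP readout. Each runs from 250 bases before to 50 bases after the transcription start, 5′ to 3′ on the gene's strand, and capitals mark matches on either strand to 3 motifs tied to SMAD binding. The first motif, bound by the SMADs of the BMP branch, is GGCGCC. The second, the classical SMAD element, is CAGAC or its reverse complement, and the third is the palindrome GTCTAGAC. The start is RefSeq's. It was the GENCODE M21 gene start for Smad6 and Smad9, but lay 325 bases inside the GENCODE gene for Id3 and 1048 bases inside for Id2. No match overlapped another.
Id3 chr4:136143572-136143871 (plus strand): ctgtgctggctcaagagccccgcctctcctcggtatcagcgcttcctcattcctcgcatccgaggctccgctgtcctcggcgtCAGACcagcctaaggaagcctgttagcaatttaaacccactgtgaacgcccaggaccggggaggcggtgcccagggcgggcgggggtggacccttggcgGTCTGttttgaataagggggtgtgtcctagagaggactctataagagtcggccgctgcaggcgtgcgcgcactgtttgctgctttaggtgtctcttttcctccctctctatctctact
Smad6 chr9:64022010-64022309 (minus strand): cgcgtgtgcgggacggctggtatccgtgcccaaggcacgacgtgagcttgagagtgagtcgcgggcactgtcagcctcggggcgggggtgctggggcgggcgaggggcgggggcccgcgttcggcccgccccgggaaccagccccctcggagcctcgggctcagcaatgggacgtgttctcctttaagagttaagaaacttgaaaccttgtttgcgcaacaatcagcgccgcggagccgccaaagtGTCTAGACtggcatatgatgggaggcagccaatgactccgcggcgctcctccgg
Id2 chr12:25096043-25096342 (minus strand): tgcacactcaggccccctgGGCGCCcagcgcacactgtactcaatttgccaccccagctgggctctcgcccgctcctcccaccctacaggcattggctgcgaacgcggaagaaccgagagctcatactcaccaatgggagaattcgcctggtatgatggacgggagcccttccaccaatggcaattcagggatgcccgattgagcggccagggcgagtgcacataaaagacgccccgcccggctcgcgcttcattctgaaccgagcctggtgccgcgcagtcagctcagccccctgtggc
Smad9 chr3:54755332-54755631 (plus strand): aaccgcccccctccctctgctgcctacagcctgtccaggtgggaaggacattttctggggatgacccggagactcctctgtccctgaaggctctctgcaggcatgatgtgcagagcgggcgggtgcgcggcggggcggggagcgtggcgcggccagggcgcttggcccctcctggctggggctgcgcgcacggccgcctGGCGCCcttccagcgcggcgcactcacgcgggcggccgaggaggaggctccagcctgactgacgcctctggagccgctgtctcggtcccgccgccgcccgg
Id3 held 2 CAGAC matches, which 49.6% of the 32851 promoters in the table also held at least once. Id2 and Smad9 held 1 GGCGCC each, as 11.9% of promoters did. Smad6 held the palindrome GTCTAGAC beginning 4 bases before its start site, which 0.213% of promoters held anywhere in the window. Of the 10 measured BMP-induced genes 7 had a promoter in the table.

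Id3, an inhibitor of basic helix-loop-helix factors, read 1206, 1398 and 1425 in the WT libraries and 253, 279 and 233 in the cKO libraries (log2 fold change -2.39 with SE 0.17, adjusted p = 4.49e-06 in limma). Its relative Id1 read 972, 1115 and 1649.7 in the WT libraries and 201, 152 and 232 in the cKO libraries (log2 fold change -2.65 with SE 0.22, adjusted p = 9.29e-06 in limma). Smad6, which blocks receptor-activated SMADs, read 214, 181 and 312 in the WT libraries and 9.54, 10.8 and 25.5 in the cKO libraries (log2 fold change -3.95 with SE 0.42, adjusted p = 4.09e-05 in limma). For these genes every cKO library lay below every WT library by a factor of several, with cKO distal 3 the highest cKO library for Id1 and Smad6. Id2 read 538, 583 and 453 in the WT libraries and 121, 179 and 214 in the cKO libraries (log2 fold change -1.64 with SE 0.30, adjusted p = 0.00141 in limma) and Smad7, the second inhibitory Smad, 525, 589 and 827 in the WT libraries and 395, 353 and 299 in the cKO libraries (log2 fold change -0.87 with SE 0.21, adjusted p = 0.00762 in limma). In all, 6 of 10 measured members fell and 1 rose (median -1.38), and 7 fell and 0 rose when scaled to the general epithelial genes. The sixth that fell was Smad9 (log2 fold change -1.62 with SE 0.46, adjusted p = 0.0194 in limma), at fewer than 10 scaled counts in every library, and its call ended without WT distal 2 (0.0782), cKO distal 1 (0.0703) and cKO distal 2 (0.0671). The member that rose was Id4, at 25.6, 30.8 and 42.2 in the WT libraries and 58.3, 65.5 and 164 in the cKO libraries (log2 fold change 1.38 with SE 0.40, adjusted p = 0.0217 in limma). The call of Id4 ended without WT distal 1 (0.0779), WT distal 2 (0.0664) and cKO distal 3 (0.0779), and its value under epithelial scaling was 0.54. Bambi (log2 fold change -0.19), Msx1 (-1.15) and Atoh8 (-0.84) were not called.

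**Figure D1:**
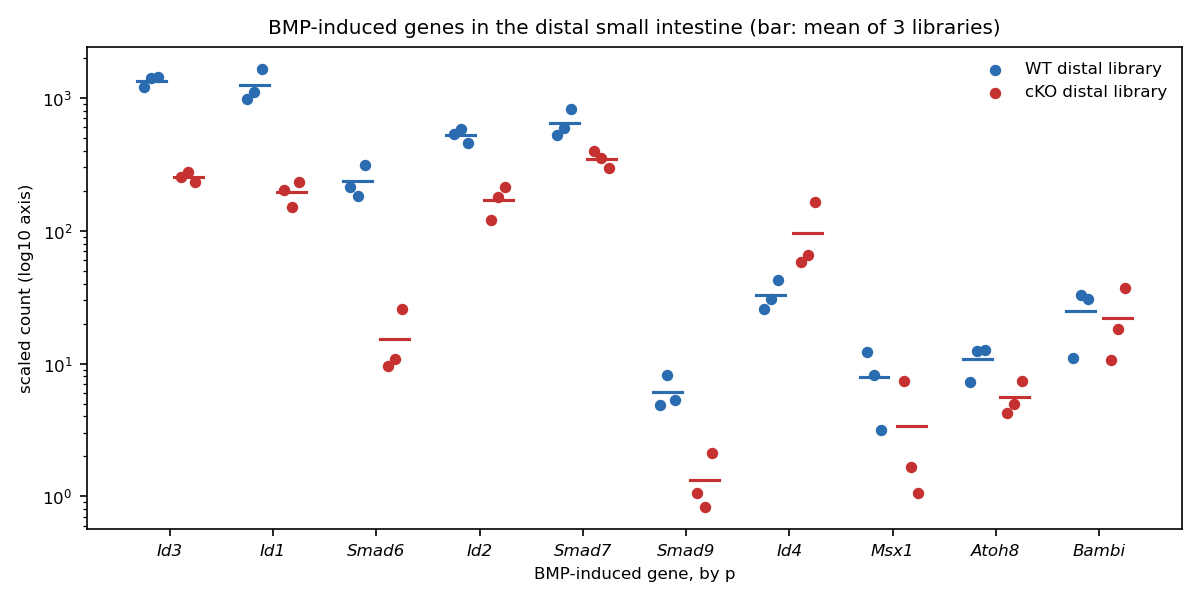
Scaled counts (log10 axis) of the 10 measured BMP-induced genes in the 3 WT distal (blue) and 3 cKO distal (red) libraries, with bars at the group means. The 6 genes that fell lie wholly below WT in cKO, Id4 lies wholly above, and Bambi, Msx1 and Atoh8 overlap.

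Most ligand genes that were called stood higher in cKO. Bmp2 read 483, 416 and 662 in the WT libraries and 1869, 1318 and 1371 in the cKO libraries (log2 fold change 1.55 with SE 0.20, adjusted p = 0.000132 in limma). Bmp3 read 138, 149 and 269.9 in the WT libraries and 4777, 3257 and 1348 in the cKO libraries (log2 fold change 3.95 with SE 0.56, adjusted p = 0.000219 in limma). Bmp4, a stromal ligand in the normal gut, read 14.6, 17.5 and 9.49 in the WT libraries and 78.4, 130.3 and 39.3 in the cKO libraries (log2 fold change 2.37 with SE 0.53, adjusted p = 0.00544 in limma). The cKO groups lay above WT in all 3 genes, and cKO distal 3 was the lowest cKO library for Bmp3 and Bmp4. Bmp8a, a less studied ligand, fell (log2 fold change -1.55 with SE 0.43, adjusted p = 0.017 in limma), a call that ended without cKO distal 1 (0.0787) and cKO distal 2 (0.0655). Of 10 genes measured on the ligand list, 3 rose and 1 fell, 40% called against 25% of all genes. Under epithelial scaling 2 rose and 3 fell, with Bmp4 at 1.60 and no longer called. Bmp7 (0.65), Bmp5 (-0.30), Bmp6 (0.24) and Bmp8b (-2.01) were not called. Nor were Bmp1 (-0.46) and Gdf15 (1.12), members of the list that are not ligands of BMP receptors. Among receptors and Smads 5 of 18 rose and 1 fell, 33.3% called against 25% of all genes. Under epithelial scaling 0 rose and 8 fell (median -0.58). That scaling left 404 higher and 7274 lower of all 17175 genes (median -0.77). Under the deposited scaling the list's median was 0.31 and that over all genes 0.06, so both moved down by a similar amount. Acvr1b, an activin type I receptor, read 716, 708 and 1231 in the WT libraries and 2233, 1781 and 1612 in the cKO libraries (log2 fold change 1.12 with SE 0.23, adjusted p = 0.00344 in limma). The co-receptor Rgmb (1.10) and the type II receptor Acvr2a (0.996) were also called higher, and the TGF-beta receptor Tgfbr1 was called lower (-0.67). Of 7 antagonist genes 1 fell (14.3%, against 25% of all genes called). This was Grem1, at 7.31, 16.4 and 8.43 in the WT libraries and 2.12, 4.15 and 2.13 in the cKO libraries. That call ended without WT distal 2 (0.0931) and cKO distal 1 (0.0813), and the number called was 0 without WT distal 2, 2 without WT distal 3 and 0 without cKO distal 1.

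Of the 19 Wnt target genes 31.6% were called, against 25% of all genes, and more of these were lower than higher. Axin2, a feedback inhibitor of Wnt signalling, read 389.7, 623 and 579 in the WT libraries and 82.6, 122 and 273 in the cKO libraries (log2 fold change -1.88 with SE 0.36, adjusted p = 0.00215 in limma). The nuclear effectors Tcf7, at 362, 729.6 and 523 in the WT libraries and 76.3, 41.5 and 90.4 in the cKO libraries, and Lef1, at 39.0, 56.5 and 44.3 in the WT libraries and 6.36, 0.83 and 10.6 in the cKO libraries, were lower still (log2 fold changes -2.95 and -3.13, limma adjusted p = 0.00012 and 0.0021). Lymphocytes also express both, and B and T cell genes fell in the same libraries (given further on). Their part in these values was not tested. Ephb2, the receptor that holds progenitors near the crypt base, read 203, 158 and 237 in the WT libraries and 709.8, 631 and 652 in the cKO libraries (log2 fold change 1.75 with SE 0.22, adjusted p = 9.92e-05 in limma). WT and cKO did not overlap for any of these 4 genes. Of 19 Wnt targets 5 fell and 1 rose (median -0.38) (1 up and 10 down under epithelial scaling). Tnfrsf19 (-1.73) and Ascl2 (-2.15) were the others that fell, both under 20 scaled counts in all libraries, and the call of Ascl2 ended without WT distal 2 (0.0604), cKO distal 1 (0.097) and cKO distal 2 (0.0725). Sox9 (0.15) and Ccnd1 (0.84) were not called.

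The stem cell list moved in both directions. Smoc2, a secreted matrix protein of crypt base cells, read 49.9, 84.3 and 91.7 in the WT libraries and 479.9, 696 and 358 in the cKO libraries (log2 fold change 2.74 with SE 0.37, adjusted p = 0.000178 in limma). Lrig1, a brake on ErbB receptors, read 144, 184 and 255 in the WT libraries and 557, 589.9 and 505 in the cKO libraries (log2 fold change 1.54 with SE 0.23, adjusted p = 0.000303 in limma). Both groups lay clear of each other for these genes. Lgr5, the stem cell R-spondin receptor, read 14.6, 22.6 and 26.4 in the WT libraries and 12.7, 19.1 and 22.3 in the cKO libraries (log2 fold change -0.22 with SE 0.58, adjusted p = 0.823 in limma). Olfm4 read 352, 469 and 596 in the WT libraries and 203, 588 and 486 in the cKO libraries (log2 fold change -0.25 with SE 0.66, adjusted p = 0.819 in limma). For Lgr5 and Olfm4 the groups overlapped, and at these low counts a small change in Lgr5 was not detectable. Of 15 members 6 rose and 2 fell (1 up and 3 down under epithelial scaling), where Smoc2 stayed called. Calls numbered 5 without WT distal 2.

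Villus tip genes that fell included a pair that makes and breaks down adenosine. Ada, which deaminates adenosine, read 4840.2, 3208 and 6348 in the WT libraries and 125, 136 and 1276 in the cKO libraries (log2 fold change -4.04 with SE 0.71, adjusted p = 0.00108 in limma). Nt5e, which makes adenosine outside the cell, read 812, 552 and 1029.9 in the WT libraries and 49.8, 63.1 and 329.6 in the cKO libraries (log2 fold change -2.92 with SE 0.62, adjusted p = 0.00381 in limma). The nucleoside transporter Slc28a2 read 1962, 1478 and 3945 in the WT libraries and 142, 118 and 2429 in the cKO libraries (log2 fold change -2.71 with SE 0.89, adjusted p = 0.038 in limma). All 3 were far lower in cKO distal 1 and 2 than in any WT library, while cKO distal 3 stood between, and for Slc28a2 it lay within the WT range. Ada and Nt5e were called without each of the 6 libraries in turn, and Slc28a2 was not called without WT distal 1 (0.0848), WT distal 2 (0.0662), WT distal 3 (0.0883), cKO distal 1 (0.173) and cKO distal 2 (0.16). The tip-high factor Klf4 fell from 3966 ± 154 to 2322 ± 350.2 (log2 fold change -0.78 with SE 0.24, adjusted p = 0.0266 in limma), a call that ended without WT distal 1 (0.0549), WT distal 2 (0.0806), cKO distal 1 (0.0976) and cKO distal 2 (0.0815). Of 13 tip genes 4 fell and 1 rose (the lipid factor Creb3l3, 1.38, not called without WT distal 1 (0.0958), WT distal 2 (0.104) and cKO distal 1 (0.0966)) (0 up and 7 down under epithelial scaling). The share of tip genes called was 38.5%, against 25% of all genes. Members called came to 2 without WT distal 1, 2 without WT distal 2 and 2 without cKO distal 1. The tip gene Apoa4 was not called (1.43).

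Villus base and antibacterial genes stood mostly higher, 6 of 17 called up and 1 down (41.2% called, against 25% of all genes). Under epithelial scaling 1 was up and 2 were down. The cytokine Il18 read 295, 291 and 322 in the WT libraries and 1767, 808 and 761 in the cKO libraries (log2 fold change 1.76 with SE 0.26, adjusted p = 0.000356 in limma), with cKO distal 1 the highest. Noxa1, an oxidase activator, read 98.6, 90.4 and 129.7 in the WT libraries and 270.2, 361 and 267 in the cKO libraries (log2 fold change 1.49 with SE 0.26, adjusted p = 0.0011 in limma). Saa1, an acute phase apolipoprotein, was the member that fell, at 753, 827 and 753 in the WT libraries and 269, 229.8 and 11.7 in the cKO libraries (log2 fold change -3.07 with SE 0.86, adjusted p = 0.018 in limma). Its call ended without WT distal 1 (0.0538) and WT distal 2 (0.0618). Calls came to 3 without WT distal 1, 3 without WT distal 2, 3 without cKO distal 1 and 4 without cKO distal 2.

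Absorptive genes stood higher in cKO across most lists. Sugar and amino acid transporters had 17 of 22 higher and 1 lower (median 1.40) (6 up and 2 down under epithelial scaling). Slc3a2, the heavy chain of amino acid exchangers, read 1830.2, 1829 and 3828 in the WT libraries and 10917, 5276 and 6332 in the cKO libraries (log2 fold change 1.61 with SE 0.32, adjusted p = 0.00272 in limma). The basolateral transporter Slc7a8 read 851, 1131 and 2505 in the WT libraries and 5591, 4229 and 2807 in the cKO libraries (log2 fold change 1.59 with SE 0.34, adjusted p = 0.00421 in limma). In both genes WT distal 3 was the highest WT library. The member that fell was Slc6a14, which takes up neutral and cationic amino acids, at 95.0, 189 and 285 in the WT libraries and 18.01, 10.8 and 6.38 in the cKO libraries (log2 fold change -3.87 with SE 0.49, adjusted p = 9.45e-05 in limma). Brush border hydrolases had 10 of 21 higher and 0 lower (7 up and 3 down under epithelial scaling). Treh, the trehalase, read 773, 804 and 2666 in the WT libraries and 16745, 6494 and 12443 in the cKO libraries (log2 fold change 3.22 with SE 0.45, adjusted p = 0.000207 in limma). Ace, the angiotensin converting enzyme, read 2674, 3566 and 14772 in the WT libraries and 52002, 20449 and 35897 in the cKO libraries (log2 fold change 2.69 with SE 0.57, adjusted p = 0.00375 in limma). Fat absorption genes had 15 of 27 higher and 1 lower (8 up and 2 down under epithelial scaling). Abca1, a cholesterol exporter, read 771, 1018 and 1209 in the WT libraries and 3919, 2458 and 2340.3 in the cKO libraries (log2 fold change 1.52 with SE 0.26, adjusted p = 0.00104 in limma). Mttp, which loads fat onto lipoproteins, read 6457, 6599 and 15551 in the WT libraries and 71609, 27236 and 48808 in the cKO libraries (log2 fold change 2.39 with SE 0.44, adjusted p = 0.00156 in limma). Cholesterol synthesis genes had 14 of 24 higher and 0 lower (2 up and 3 down under epithelial scaling), with Tm7sf2 of sterol reduction at 242, 195 and 504 in the WT libraries and 1654, 1098 and 839 in the cKO libraries. The number called moved to 8 without WT distal 1, 8 without WT distal 2 and 7 without cKO distal 1 for the transporters, to 5 without WT distal 1 and 5 without cKO distal 1 for the hydrolases, to 10 without WT distal 2 and 10 without cKO distal 1 for fat absorption and to 8 without WT distal 1, 6 without WT distal 2 and 4 without cKO distal 1 for cholesterol synthesis. With the mitochondrial share as a covariate it was 0 higher and 1 lower, 1 and 0, 4 and 0, and 0 and 0 in the same order.

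Detoxification genes were mostly higher. Of 36 measured, 24 rose and 0 fell (median 1.61) (18 up and 2 down under epithelial scaling). With the mitochondrial share as a covariate 8 rose and 0 fell. Gstm6, a glutathione transferase, read 62.1, 75.0 and 105 in the WT libraries and 527, 314 and 383 in the cKO libraries (log2 fold change 2.32 with SE 0.23, adjusted p = 2.22e-05 in limma). The carboxylesterase Ces1f read 377, 377 and 719 in the WT libraries and 2759, 1994 and 2379 in the cKO libraries (log2 fold change 2.33 with SE 0.25, adjusted p = 4.09e-05 in limma). A further transferase, Gstk1, read 175, 284 and 301 in the WT libraries and 1334, 838 and 660.3 in the cKO libraries (log2 fold change 1.87 with SE 0.25, adjusted p = 0.00015 in limma). Gsta1 read 91.3, 356 and 284 in the WT libraries and 1746, 1135 and 2082 in the cKO libraries (log2 fold change 2.93 with SE 0.41, adjusted p = 0.000198 in limma). In these 4 genes the highest WT library lay below the lowest cKO library. Members of the Ces and Gst families resemble each other in sequence, so reads of close copies are uncertain.

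Acid-base, chloride and water genes had 15 of 24 higher and 0 lower (median 1.22) (11 up and 2 down under epithelial scaling). Slc26a3, the chloride and bicarbonate exchanger, read 592, 805 and 1390.4 in the WT libraries and 5045, 4317 and 2963 in the cKO libraries (log2 fold change 2.20 with SE 0.30, adjusted p = 0.000182 in limma). The carbonic anhydrase Car9 read 222, 192 and 297 in the WT libraries and 1118, 659.6 and 709 in the cKO libraries (log2 fold change 1.78 with SE 0.22, adjusted p = 9.05e-05 in limma). Slc4a4, a sodium bicarbonate carrier, read 793, 974 and 1459 in the WT libraries and 3515, 3501 and 2338 in the cKO libraries (log2 fold change 1.56 with SE 0.25, adjusted p = 0.000556 in limma). Guca2a, the hormone guanylin, read 2637, 2913 and 8665 in the WT libraries and 22528, 14449 and 23472 in the cKO libraries (log2 fold change 2.28 with SE 0.38, adjusted p = 0.000798 in limma). WT and cKO libraries did not overlap for any of the 4, and WT distal 3 was the highest WT library in each.

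**Figure D2:**
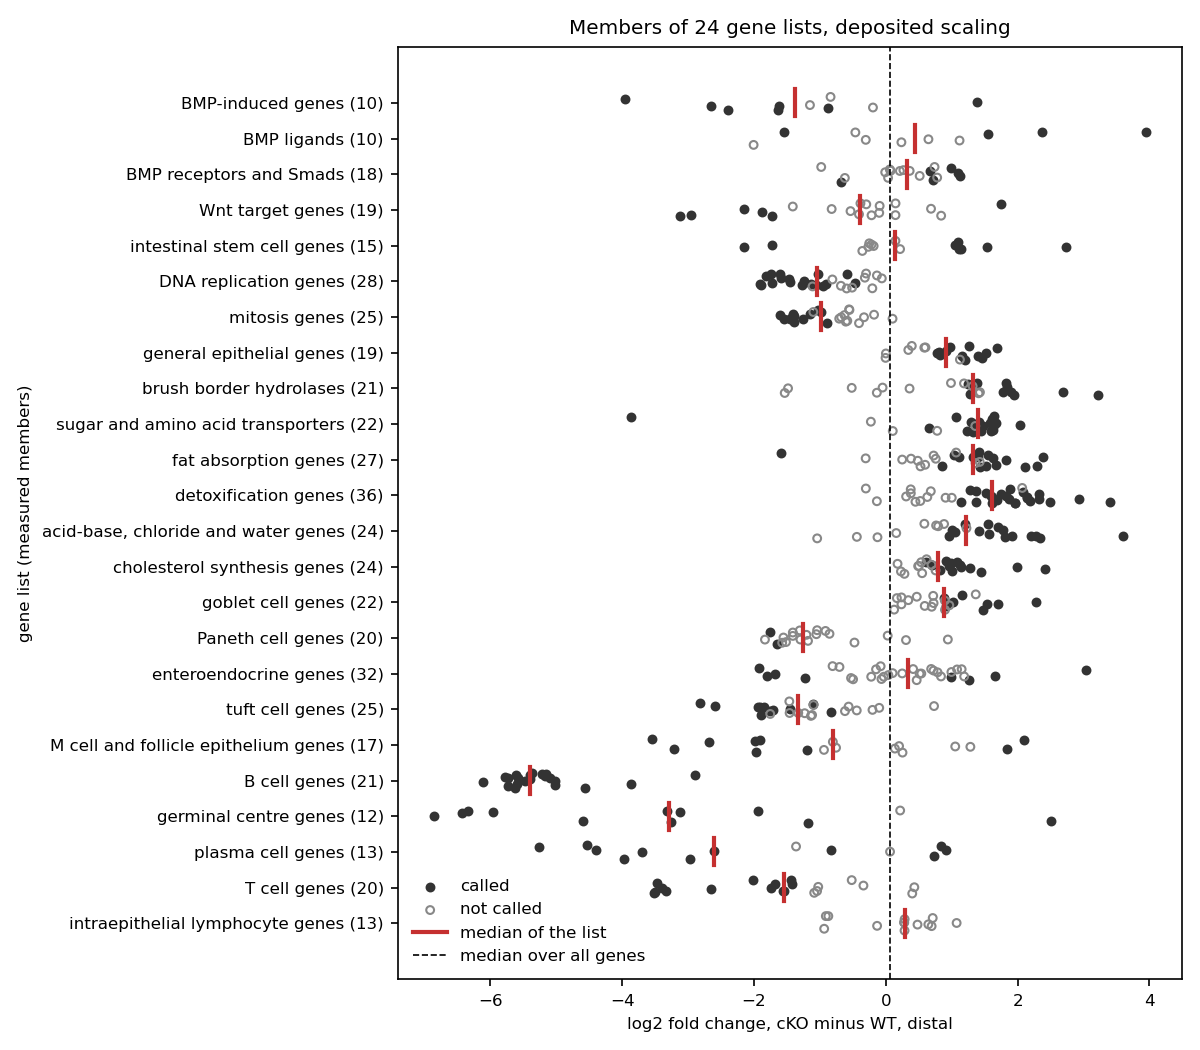
Log2 fold changes (cKO minus WT, distal) of the members of 24 gene lists, one point per gene, filled where called at an adjusted p under 0.05, with a bar at each list's median and a dashed line at the median over all genes, 0.06. Absorptive lists lie mostly right of that line. B cell, germinal centre, plasma cell and T cell lists lie mostly left of it, while the intraepithelial lymphocyte median is 0.28. Under scaling to general epithelial genes the median over all genes is -0.77.

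Iron genes moved apart from one another. Slc40a1 (chromosome 1, 45908068 to 45926523), the iron exporter ferroportin, read 527, 621 and 585 in the WT libraries and 71.0, 71.4 and 36.2 in the cKO libraries (log2 fold change -3.32 with SE 0.25, adjusted p = 4.63e-06 in limma). Heph, the oxidase that works beside it, read 1559, 1798 and 3407 in the WT libraries and 9171, 4657 and 5803 in the cKO libraries (log2 fold change 1.57 with SE 0.31, adjusted p = 0.00283 in limma). The transferrin receptor gene Tfrc read 631, 695 and 1049 in the WT libraries and 2197, 2039 and 1318 in the cKO libraries (log2 fold change 1.23 with SE 0.25, adjusted p = 0.00301 in limma). The importer Slc11a2 read 395, 420.3 and 562 in the WT libraries and 1668, 1049 and 980.4 in the cKO libraries (log2 fold change 1.40 with SE 0.34, adjusted p = 0.00878 in limma). None of these 4 genes overlapped between groups. Macrophages also express Slc40a1, and 6 of 18 myeloid genes fell in the same libraries (given further on). Their part in the Slc40a1 value was not tested. Of the iron genes 4 of 15 rose and 1 fell, 33.3% called against 25% of all genes (1 up and 7 down under epithelial scaling). Aco1 was the fourth that rose (0.70), with a call that ended without WT distal 1 (0.113), WT distal 2 (0.078), cKO distal 1 (0.128) and cKO distal 2 (0.0647), and that of Slc11a2 ended without cKO distal 1 (0.0518). The count of calls moved to 3 without cKO distal 1.

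Retinoid genes had 7 of 17 higher and 1 lower (1 up and 3 down under epithelial scaling). Aldh1a1, which makes retinoic acid, read 1432, 1772 and 1898 in the WT libraries and 7151, 6233 and 5477 in the cKO libraries (log2 fold change 1.89 with SE 0.20, adjusted p = 3.4e-05 in limma). Rdh10, which makes its substrate, read 180.2, 201 and 196 in the WT libraries and 424, 295 and 478 in the cKO libraries (log2 fold change 1.02 with SE 0.19, adjusted p = 0.00176 in limma). Stra6, a receptor for retinol binding protein, was the member that fell, at 32.9, 47.3 and 25.3 in the WT libraries and 4.24, 9.13 and 6.38 in the cKO libraries (log2 fold change -2.26 with SE 0.44, adjusted p = 0.00219 in limma). The number called was 5 without WT distal 1. Among calcium and phosphate genes 2 of 9 rose and 2 fell, 44.4% called against 25% of all genes (1 up and 2 down under epithelial scaling). The phosphate transporter Slc20a1 read 214, 268 and 570.3 in the WT libraries and 1550.0, 1152 and 1309 in the cKO libraries (log2 fold change 2.05 with SE 0.32, adjusted p = 0.000523 in limma). The calcium exchanger Slc8a1 read 140.0, 115 and 55.9 in the WT libraries and 20.1, 34.8 and 34.0 in the cKO libraries (log2 fold change -1.71 with SE 0.39, adjusted p = 0.00612 in limma).

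A list of genes of ileal bile acid and cobalamin handling also held Guca2b and Mep1b, which belong to neither process. Of 13 members 4 rose and 0 fell, 30.8% called against 25% of all genes (2 up and 2 down under epithelial scaling). Guca2b, uroguanylin, read 3322, 3954 and 9712 in the WT libraries and 24925, 16543 and 16824 in the cKO libraries (log2 fold change 1.92 with SE 0.36, adjusted p = 0.00189 in limma). Mep1b, a meprin protease, read 7804, 7249.9 and 16632 in the WT libraries and 60100.2, 31668 and 27917 in the cKO libraries (log2 fold change 1.94 with SE 0.38, adjusted p = 0.00255 in limma). In WT libraries Guca2b stood at 15433 ± 3314 proximally and 5663 ± 3521 distally, and Mep1b at 10408 ± 3659 and 10562 ± 5264, so neither was higher distally beyond the spread between libraries. Amn (1.65) and Tcn2 (1.03) of cobalamin handling were the others, and in WT Tcn2 stood at 5351 ± 1382 proximally and 3502 ± 1809.8 distally. Their calls ended without WT distal 1 (0.119), WT distal 2 (0.132) and cKO distal 1 (0.138) for Amn and without WT distal 1 (0.124), WT distal 2 (0.135), cKO distal 1 (0.145) and cKO distal 2 (0.0551) for Tcn2. The bile acid transporter Slc10a2 read 1605, 2465 and 4095 in the WT libraries and 1703, 1504 and 2046 in the cKO libraries (log2 fold change -0.54 with SE 0.37, adjusted p = 0.305 in limma) and the hormone Fgf15 43.8, 37.0 and 288 in the WT libraries and 124, 146 and 542 in the cKO libraries (log2 fold change 1.45 with SE 0.69, adjusted p = 0.146 in limma), with overlap in both. Calls numbered 2 without WT distal 1, 2 without WT distal 2 and 7 without WT distal 3.

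Among transcription factors of regional and enterocyte identity 7 of 24 rose and 3 fell, 41.7% called against 25% of all genes. Under epithelial scaling 0 rose and 8 fell, so the higher calls were lost. Their median there, -0.51, lay above the -0.77 over all genes. Under TMM scaling, a trimmed mean of M-values, 7 rose and 3 fell. Cdx1, a hindgut factor, read 1517, 1584 and 2019.7 in the WT libraries and 3673, 3292 and 2818 in the cKO libraries (log2 fold change 0.94 with SE 0.16, adjusted p = 0.00109 in limma). Isx, which represses beta-carotene uptake, read 1054, 1293 and 1286 in the WT libraries and 2615, 2445 and 1929.9 in the cKO libraries (log2 fold change 0.94 with SE 0.16, adjusted p = 0.000925 in limma). Tbx3 read 1587, 1937 and 2137 in the WT libraries and 897, 972 and 1025 in the cKO libraries (log2 fold change -0.96 with SE 0.21, adjusted p = 0.00507 in limma). Prdm1, the repressor Blimp1, read 191, 194 and 207 in the WT libraries and 121, 109 and 101 in the cKO libraries (log2 fold change -0.84 with SE 0.20, adjusted p = 0.00717 in limma). No WT library overlapped a cKO library for these 4. Plasma cells also express Prdm1, and 8 of 13 plasma cell genes fell in the same libraries (given further on). Their part in the Prdm1 value was not tested. Gata4, the factor of the proximal bowel, read 483, 735 and 611 in the WT libraries and 1442, 1172 and 713 in the cKO libraries (log2 fold change 0.82 with SE 0.23, adjusted p = 0.0201 in limma). Its call ended without WT distal 1 (0.0859), cKO distal 1 (0.106) and cKO distal 2 (0.0692). Elf3 (0.78) was called higher too, and its call ended without WT distal 2 (0.0643) and cKO distal 1 (0.0703). The distal factor Cdx2 (0.23) was not called. Members called came to 5 without WT distal 1, 5 without cKO distal 1 and 6 without cKO distal 2.

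**Figure D3:**
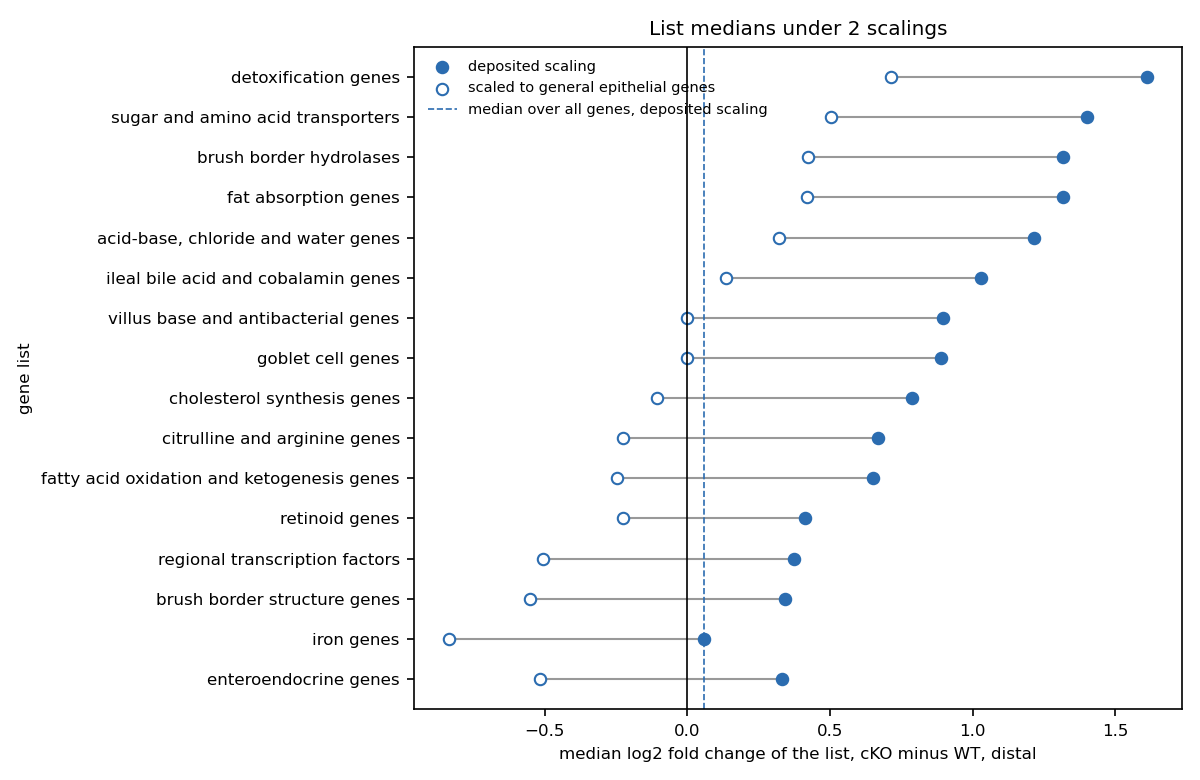
Median log2 fold change of 16 epithelial and metabolic lists under the deposited scaling (filled circles) and under scaling to general epithelial genes (open circles), beside the median over all genes. Medians of detoxification, transporter and hydrolase genes stay above 0 under both, while those of regional factors, brush border structure and cholesterol synthesis fall below 0. Under the second scaling the median over all genes is -0.77.

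Of 22 goblet cell genes 8 rose and 0 fell, 36.4% called against 25% of all genes (median 0.89) (3 up and 2 down under epithelial scaling). Spink4, a protease inhibitor, read 2389, 3033 and 4182 in the WT libraries and 11094, 7135 and 13196 in the cKO libraries (log2 fold change 1.70 with SE 0.27, adjusted p = 0.00052 in limma). Galnt3, which starts mucin O-glycans, read 179, 221 and 285 in the WT libraries and 709, 553 and 619 in the cKO libraries (log2 fold change 1.47 with SE 0.26, adjusted p = 0.00116 in limma). Muc2, the main gel-forming mucin, read 8750.2, 6794 and 27197 in the WT libraries and 33323, 15003 and 55308 in the cKO libraries (log2 fold change 1.37 with SE 0.55, adjusted p = 0.0849 in limma), with overlap. Gcnt3, which branches mucin glycans, rose from 526 ± 313 to 2777 ± 793 (log2 fold change 2.51 with SE 0.36, adjusted p = 0.000262 in limma), beside the loss of St6galnac1 reads given above. Calls came to 14 without WT distal 3 and 5 without cKO distal 1. Of 20 Paneth cell genes 2 fell and 0 rose, and 3 had a positive value. The share called, 10%, was below the 25% over all genes. Lyz1, lysozyme, read 3302, 25219.9 and 19559.5 in the WT libraries and 3088, 3461 and 12459.7 in the cKO libraries (log2 fold change -1.20 with SE 0.69, adjusted p = 0.226 in limma). WT distal 1 stood near the cKO libraries and cKO distal 3 near the WT libraries, so the groups overlapped. Ang4 fell (-1.76), a call that ended without WT distal 2 (0.121), WT distal 3 (0.0601), cKO distal 1 (0.127) and cKO distal 2 (0.11). The number of Paneth genes called was 13 without WT distal 1, 0 without WT distal 2, 0 without WT distal 3, 0 without cKO distal 1 and 0 without cKO distal 2.

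Hormone genes of enteroendocrine cells were called in both directions. Sct, secretin, read 603, 411 and 804 in the WT libraries and 161, 139 and 158 in the cKO libraries (log2 fold change -1.93 with SE 0.28, adjusted p = 0.000296 in limma). Nts, neurotensin, read 1151, 827 and 1101 in the WT libraries and 279.7, 354 and 314 in the cKO libraries (log2 fold change -1.69 with SE 0.31, adjusted p = 0.00155 in limma). Pyy, peptide YY, read 212, 214 and 383 in the WT libraries and 74.2, 60.6 and 89.3 in the cKO libraries (log2 fold change -1.80 with SE 0.38, adjusted p = 0.0037 in limma). Against these, Gcg, the proglucagon gene, read 65.8, 102 and 91.7 in the WT libraries and 255, 293 and 267 in the cKO libraries (log2 fold change 1.66 with SE 0.26, adjusted p = 0.000506 in limma). Cck, cholecystokinin, read 73.1, 79.1 and 70.6 in the WT libraries and 175, 211 and 156 in the cKO libraries (log2 fold change 1.26 with SE 0.29, adjusted p = 0.00625 in limma). The irritant channel gene Trpa1 of serotonin cells read 2.44, 4.11 and 2.11 in the WT libraries and 31.8, 39.0 and 22.3 in the cKO libraries (log2 fold change 3.04 with SE 0.45, adjusted p = 0.000299 in limma). The 2 groups did not overlap for any of these 6. In all 4 of 32 rose and 4 fell (1 up and 8 down under epithelial scaling). The share called equalled the 25% over all genes. Chga, a granule protein of most of these cells, was not called (0.47).

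Tuft cell genes stood lower, 11 of 25 called lower and 0 higher (median -1.33), and 19 lower under epithelial scaling. Plcb2 of taste signalling read 330.0, 368 and 247 in the WT libraries and 73.1, 93.8 and 84.0 in the cKO libraries (log2 fold change -1.89 with SE 0.25, adjusted p = 0.000123 in limma). Hpgds, a prostaglandin synthase, read 133, 155 and 154 in the WT libraries and 43.4, 29.9 and 48.9 in the cKO libraries (log2 fold change -1.85 with SE 0.26, adjusted p = 0.000218 in limma). Gnat3, gustducin, read 91.3, 20.6 and 29.5 in the WT libraries and 5.30, 7.47 and 4.25 in the cKO libraries (log2 fold change -2.59 with SE 0.56, adjusted p = 0.00426 in limma). The defining genes Dclk1 and Trpm5 read 992, 282 and 207 and 1220.1, 249 and 257 in WT and 272, 222 and 89.3 and 536, 419.8 and 138 in cKO libraries, and were not called. WT distal 1 was far above the other WT libraries for Dclk1, Trpm5 and Gnat3. The count of calls moved to 5 without WT distal 1 and 6 without cKO distal 3. B cells and macrophages also express Plcb2 and some other members, and their part was not tested.

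The distal small intestine holds Peyer's patches, lymphoid follicles in which B cells divide and mature in germinal centres under an epithelium with M cells. All 21 B cell genes fell (median -5.39), against 11.7% of all genes called lower, and all 21 did so in each of the 6 fits without 1 distal library. Of the 48 lists described it had the median farthest from 0. Their summed level was 17140.0 to 49896 in WT and 621 to 1414 in cKO libraries. Ms4a1, which encodes CD20, and Pax5 are defining markers, and neither was at 0 in any library. Ms4a1 read 1141, 2948 and 1853 in the WT libraries and 24.4, 23.2 and 59.5 in the cKO libraries (log2 fold change -5.79 with SE 0.59, adjusted p = 2.82e-05 in limma). Pou2af1, a co-activator of antibody genes, read 1561, 2668 and 1679 in the WT libraries and 37.1, 19.9 and 73.4 in the cKO libraries (log2 fold change -5.62 with SE 0.49, adjusted p = 1.28e-05 in limma). Of 12 germinal centre genes 10 fell and 1 rose (1 up and 10 down under epithelial scaling). Gcsam read 311, 355 and 257 in the WT libraries and 7.42, 1.66 and 4.25 in the cKO libraries (log2 fold change -5.96 with SE 0.49, adjusted p = 7.9e-06 in limma). The one that rose was Gcnt3, which goblet cells and enterocytes express as well, and with it the list's summed level was 4005 to 5138 in WT and 2908 to 4603 in cKO libraries. Of 8 genes of follicle stroma and high endothelial venules, the entry vessels of lymphocytes, 7 fell, among them the B cell attractant Cxcl13, at 93.8, 211 and 109.6 in the WT libraries and 3.18, 3.32 and 34.0 in the cKO libraries. In RNA from whole samples, fewer cells of a type and less RNA per cell cannot be told apart, and the share of follicles in each tissue piece was not measured.

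Follicle epithelium and antibody-secreting cells changed in the same libraries. Of 17 M cell genes 7 fell and 2 rose (2 up and 11 down under epithelial scaling). Spib, the M cell factor that B cells also use, read 1515, 2446 and 1573 in the WT libraries and 169.5, 150.2 and 141 in the cKO libraries (log2 fold change -3.54 with SE 0.25, adjusted p = 4.49e-06 in limma). The chemokine Ccl20 read 159.5, 83.2 and 68.5 in the WT libraries and 843, 360.1 and 243 in the cKO libraries (log2 fold change 2.10 with SE 0.39, adjusted p = 0.0016 in limma). Of 13 plasma cell genes 8 fell and 3 rose (0 up and 8 down under epithelial scaling). Jchain, the joining chain of secreted antibodies, read 2770.2, 4478 and 4027 in the WT libraries and 289, 109 and 169 in the cKO libraries (log2 fold change -4.39 with SE 0.48, adjusted p = 4.38e-05 in limma). Igha, the IgA heavy chain, read 7044, 11285 and 26339 in the WT libraries and 3278, 642 and 2027 in the cKO libraries (log2 fold change -2.98 with SE 0.66, adjusted p = 0.00512 in limma). The 3 that rose were Xbp1 (0.83), Sdc1 (0.92) and Txndc5 (0.74), which epithelial and secretory cells also express. Each of these 3 calls ended without WT distal 1, without WT distal 2 and without cKO distal 1, that of Sdc1 also without cKO distal 2 and that of Txndc5 also without cKO distal 3, with adjusted p of at most 0.122.

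Of 20 T cell genes 13 fell, and none of 13 genes of intraepithelial lymphocytes was called. Cd28, the co-stimulatory receptor of T cells, read 56.0, 117 and 65.4 in the WT libraries and 6.36, 4.98 and 6.38 in the cKO libraries (log2 fold change -3.48 with SE 0.39, adjusted p = 5.37e-05 in limma). Cd3e, shared by all T cells, read 101, 173 and 99.1 in the WT libraries and 117, 97.9 and 51.0 in the cKO libraries (log2 fold change -0.52 with SE 0.38, adjusted p = 0.344 in limma) and overlapped. Of the intraepithelial lymphocyte genes 4 had an unadjusted p under 0.05 in limma, 0 were called by edgeR and 1 by DESeq2. In limma the calls moved to 2 without WT distal 3 and 2 without cKO distal 3. Gzma, a granzyme, read 549, 1109.8 and 845 in the WT libraries and 2316, 2349.8 and 887 in the cKO libraries (log2 fold change 1.07 with SE 0.45, adjusted p = 0.0994 in limma). A difference between the T cell and intraepithelial lists was not tested. Of 18 myeloid genes 6 fell, with the complement gene C1qa at 1516, 1029.7 and 967 in the WT libraries and 245, 199 and 422 in the cKO libraries (log2 fold change -2.06 with SE 0.32, adjusted p = 0.000468 in limma). The share of myeloid genes called was 33.3%, against 25% of all genes, and the number was 10 without WT distal 3. Of 10 MHC class II genes 4 fell (40%, against 25% of all genes called), and 10 fell without both cKO libraries numbered 1. H2-Ob, confined mainly to B cells, read 639, 2329.6 and 1657 in the WT libraries and 29.7, 22.4 and 37.2 in the cKO libraries (log2 fold change -5.49 with SE 0.67, adjusted p = 7.73e-05 in limma), while H2-Aa, which enterocytes can also make, read 4897, 10003 and 8198 in the WT libraries and 10488, 1905 and 1137 in the cKO libraries (log2 fold change -1.38 with SE 0.83, adjusted p = 0.251 in limma). For H2-Aa cKO distal 1 was the highest of the 6 libraries and the other 2 cKO libraries were the lowest.

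**Figure D4:**
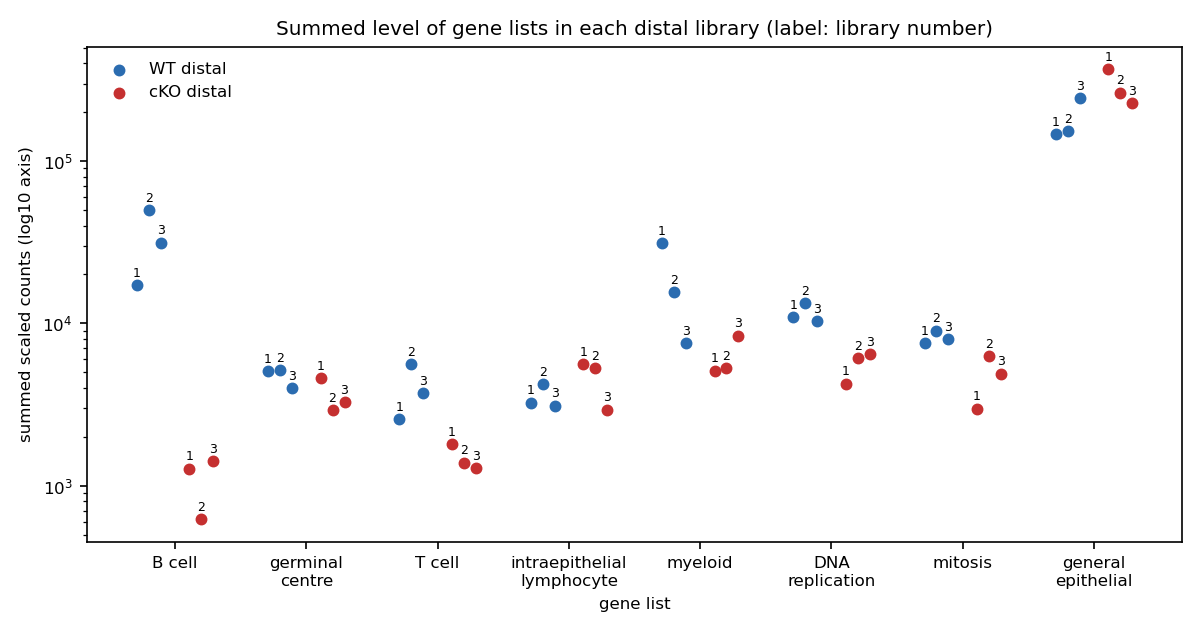
Summed scaled counts of 8 gene lists (log10 axis) in the 3 WT distal (blue) and 3 cKO distal (red) libraries, points labelled by library number. B cell levels are 17140.0 to 49896 in WT and 621 to 1414 in cKO, DNA replication and mitosis levels lie closer together, and intraepithelial lymphocyte levels overlap. The germinal centre sum also overlaps and includes Gcnt3, whose level rose.

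Many genes of DNA replication and mitosis fell. Of 28 replication genes 18 fell and 0 rose (median -1.05). Mcm2, a helicase subunit, read 602, 787 and 493 in the WT libraries and 107, 219 and 221 in the cKO libraries (log2 fold change -1.82 with SE 0.30, adjusted p = 0.000686 in limma). Uhrf1, which carries DNA methylation through replication, read 615, 719 and 515 in the WT libraries and 121, 219.9 and 229.7 in the cKO libraries (log2 fold change -1.74 with SE 0.26, adjusted p = 0.000383 in limma). Of 25 mitosis genes 13 fell and 0 rose (median -0.98). Mki67, the proliferation marker Ki-67, read 919, 1278 and 1069 in the WT libraries and 269, 762 and 442 in the cKO libraries (log2 fold change -1.26 with SE 0.30, adjusted p = 0.00774 in limma). Top2a read 1023, 1354 and 1157 in the WT libraries and 286, 633 and 443 in the cKO libraries (log2 fold change -1.44 with SE 0.26, adjusted p = 0.0015 in limma). All WT libraries lay above all cKO libraries for these 4 genes, and cKO distal 1 was the lowest in each. The number called moved to 11 without WT distal 2 and 11 without cKO distal 1 for replication and to 8 without WT distal 1, 7 without WT distal 2 and 7 without cKO distal 1 for mitosis, and without both cKO libraries numbered 1 it was 11 and 4. Germinal centre B cells also divide, and their genes fell beside these ones, with a summed level of B cell genes of 17140.0 to 49896 in WT and 621 to 1414 in cKO. Their part in the lower replication and mitosis levels was not tested. With the mitochondrial share as a covariate 7 replication and 2 mitosis genes fell.

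Markers of other cell types were counted as well, beside 25% of all genes called. Of 18 fibroblast and telocyte genes 3 fell and 2 rose (2 up and 8 down under epithelial scaling), with Adamdec1 of the lamina propria at 270.3, 507 and 637 in the WT libraries and 26.5, 16.6 and 154 in the cKO libraries (log2 fold change -3.40 with SE 0.64, adjusted p = 0.0019 in limma). The number called was 14 without WT distal 3. The summed level of that list was 6219 to 29392 in WT, lowest in WT distal 3, and 9718 to 14376 in cKO libraries. Of 15 endothelial genes 2 fell and 1 rose (0 up and 5 down under epithelial scaling), with the junction gene Pecam1 at 185, 457 and 435 in the WT libraries and 43.4, 35.7 and 67.0 in the cKO libraries (log2 fold change -2.80 with SE 0.43, adjusted p = 0.000426 in limma). The number called was 1 without cKO distal 1. None of 9 pancreatic acinar genes was called in limma, 1 had an unadjusted p under 0.05, and edgeR called 2 and DESeq2 6. Without WT distal 2, limma called 1. Their summed level was 70.6 to 1257 in WT, highest in WT distal 2, and 185 to 333 in cKO libraries. None of 6 erythrocyte genes was called by limma, edgeR or DESeq2, and 0 had an unadjusted p under 0.05. Of 12 smooth muscle genes 1 rose, though the median was -0.80 and only 2 had a positive value. Under epithelial scaling 0 rose and 7 fell (median -1.65). The list's calls under the deposited scaling numbered 0 without WT distal 2 and 2 without WT distal 3. They numbered 0 without cKO distal 1, 0 without cKO distal 2 and 2 without cKO distal 3. Of 9 enteric neuron and glia genes 1 fell, and calls numbered 0 without WT distal 1 and 0 without cKO distal 3. Of 9 stomach and Brunner gland genes the protease gene Ctse fell (-3.66) and the proton pump gene Atp4a rose (1.70), from summed levels of at most 111.7 scaled counts (0 up and 1 down under epithelial scaling). Of 20 interferon response genes 2 fell and 1 rose (0 up and 4 down under epithelial scaling), and of 14 handling and stress genes 1 fell. The number called was 0 without WT distal 1, 0 without WT distal 2, 0 without cKO distal 1, 0 without cKO distal 2 and 1 without cKO distal 3 for interferon genes and 0 without WT distal 1, 0 without cKO distal 1, 3 without cKO distal 2 and 2 without cKO distal 3 for handling genes.

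Metabolic lists beyond absorption were mixed. Fatty acid oxidation and ketogenesis genes had 14 of 27 higher and 1 lower (3 up and 4 down under epithelial scaling). Pdk4, which holds back glucose oxidation, read 21.9, 19.5 and 21.1 in the WT libraries and 81.6, 78.8 and 171 in the cKO libraries (log2 fold change 2.26 with SE 0.27, adjusted p = 7e-05 in limma). Calls numbered 8 without WT distal 1, 8 without cKO distal 1, 9 without cKO distal 2 and 23 without cKO distal 3. Citrulline and arginine genes had 5 of 13 higher and 1 lower (0 up and 1 down under epithelial scaling). Cps1, which starts citrulline synthesis, read 1395, 1601 and 2131 in the WT libraries and 4765, 5008 and 2949 in the cKO libraries (log2 fold change 1.29 with SE 0.28, adjusted p = 0.00437 in limma). Ass1, which uses citrulline, was the member that fell (-1.26), a call that ended without WT distal 1 (0.116), WT distal 2 (0.158), cKO distal 1 (0.19) and cKO distal 2 (0.116). Members called came to 2 without WT distal 1, 3 without WT distal 2, 2 without cKO distal 1 and 11 without cKO distal 3. Genes of brush border structure had 3 of 23 higher and 1 lower. Under epithelial scaling 0 rose and 8 fell, with a median of -0.55 that lay above the -0.77 over all genes. The calls under the deposited scaling were a smaller share than the 25% over all genes. They numbered 2 without WT distal 1, 7 without WT distal 3, 1 without cKO distal 1 and 9 without cKO distal 3.

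The share of mitochondrially encoded reads differed between the groups apart from cKO distal 3, and with it as a covariate 1356 genes were called. Of 45 lists with 1 or more genes called, 12 had none called with the covariate, among them general epithelial, villus tip, ileal, citrulline and cholesterol synthesis genes, and 41 in all had fallen by over 1.5 times. Receptors and Smads fell to 1 call, iron genes to 1 and follicle stroma genes to 3. Without both cKO libraries numbered 1, the calls of 27 of the 45 lists fell by over 1.5 times. With the covariate the B cell list had 21 members lower, the germinal centre list 10 lower, the BMP-induced list 5 lower and 0 higher, the T cell list 5 lower, the tuft cell list 6 lower and the acid-base list 4 higher. Of the 127 genes named in this text that were called, 51 were not called with the covariate, and 105 were called in all 6 fits without 1 distal library. Of 12 mitochondrially encoded mRNAs 2 fell, and the number called was 0 without WT distal 1, 1 without WT distal 2, 0 without WT distal 3, 0 without cKO distal 1, 0 without cKO distal 2 and 4 without cKO distal 3. The part of the mitochondrial share in the other results was not tested beyond this covariate.

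Whether the distal change differed from the proximal one was tested as an interaction. It was called for 99 of 17175 genes, 0.576%, with 30 more positive and 69 more negative in the distal segment (limma). Under TMM scaling 39 were more positive and 51 more negative, and in edgeR 29 and 30. The balance turned without WT distal 3, to 157 and 109, without WT distal 2, to 4 and 3, and in voom, to 11 and 9. Libraries of one genotype and number deviated together between segments, but the labels do not state that they share an animal. With each such pair as a random block 434 genes were called. The proximal comparison itself called 8.26% of genes, 4.21% higher and 4.05% lower. Large negative differences lay in germinal centre and antibody genes: Ighg2b (-6.27, SE 0.82, limma adjusted p = 0.0117), Mef2b (-4.64, SE 0.82, limma adjusted p = 0.0271) and Gcsam (-4.60, SE 0.69, limma adjusted p = 0.015), with Rasal1, a Ras GTPase activator, beside them (-4.85, SE 0.99, limma adjusted p = 0.0452). The distal call of Rasal1 (-2.55) ended without WT distal 2 (0.0759), cKO distal 1 (0.0729) and cKO distal 2 (0.076). Among well-expressed genes, predicted ones left out, the largest positive differences lay in Pyy (4.02, SE 0.53, limma adjusted p = 0.0117), the nucleoside transporter Slc28a1 (3.76, SE 0.60, limma adjusted p = 0.0184), the carboxylesterase Ces2b (3.47, SE 0.57, limma adjusted p = 0.0203), Acox2 of bile acid synthesis (2.94, SE 0.43, limma adjusted p = 0.015) and the deacetylase Aadac (2.52, SE 0.51, limma adjusted p = 0.0432). Pyy fell in both segments, by a log2 fold change of -5.81 proximally and -1.80 distally, and at 3.55 ± 2.57 in cKO proximal libraries it was near the floor, so the size of its proximal fall is uncertain. Slc28a1 had log2 fold changes of -1.32 proximally and 2.44 distally, and Acox2 of -0.93 and 2.01. Ferroportin, Slc40a1, had -0.56 proximally (limma adjusted p = 0.17) and -3.32 distally, and the difference was called (-2.76, SE 0.35, limma adjusted p = 0.0117). Slc6a14 was also called, but it stood at 1.44 ± 0.614 in WT and 1.34 ± 0.595 in cKO proximal libraries, under the floor of 3 reads, so no proximal change could be seen and no difference is given. Of the 99 genes, 11 were under that floor in both genotypes of 1 segment. Aldh1a1 had 0.08 and 1.89 (1.81, SE 0.28, limma adjusted p = 0.0179). No BMP-induced or Wnt target gene was called in this limma test, which leaves out any pairing of libraries. That does not show that their changes were equal. Id3 had log2 fold changes of -3.45 proximally and -2.39 distally, a difference near the threshold (1.06, SE 0.24, limma adjusted p = 0.0689). Leaving out 1 distal library moved the count to 7 without WT distal 2, 266 without WT distal 3, 9 without cKO distal 1, 37 without cKO distal 2 and 157 without cKO distal 3, and it was 2 without both cKO libraries numbered 1. Pyy, Slc40a1 and Ighg2b were called in this test without each of the 6 distal libraries in turn. Their highest limma adjusted p in those fits was 0.049 for each, just under the threshold. Without both cKO libraries numbered 1 the calls were 0 positive and 2 negative, so Pyy was not called there.

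**Figure D5:**
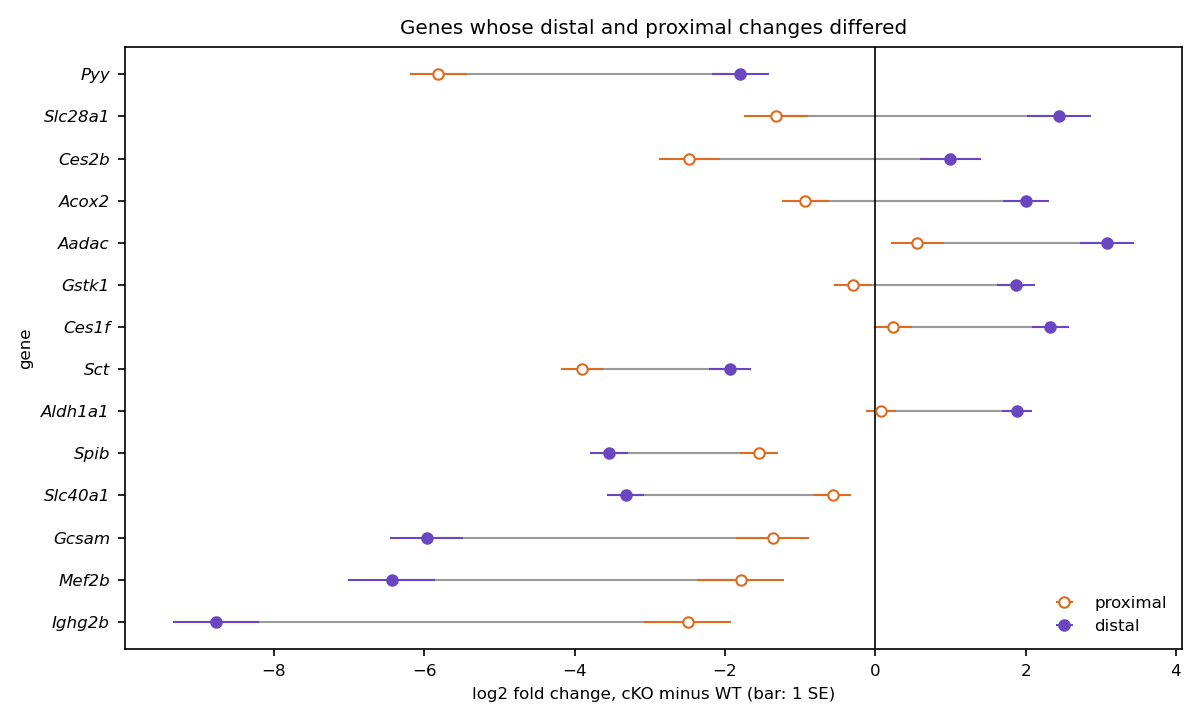
Log2 fold change in the proximal (open circles) and distal (filled circles) segment for 14 named genes, with bars of 1 standard error and a line joining the 2 segments of a gene. Ferroportin (Slc40a1) lies at -0.56 proximally and -3.32 distally, while Pyy lies lower proximally than distally.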

How the data were processed

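The RNA was total RNA from small intestine, extracted with Trizol and made into libraries with the Ovation RNA-Seq System V2, per the labels' protocols. STAR, DESeq2 1.28.1 and mm10 are listed per the submitters' processing notes; the counting tool and annotation are not given in the sources used here. The authors deposited 1 table of 17175 genes whose signal values are read counts plus 1 divided by a size factor. The deposited log2 fold change, its score columns and its p-values belong to another contrast and were not used. All 12 sample columns matched a sample, and 0 were left over. Each value was a whole multiple of its column's minimum (206100 of 206100 within 0.001 steps), which gave whole reads back, so that depth is known. Every gene had at least 13 reads over all libraries.

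limma 3.58.1 (R 4.3.3) was fitted to log2(value + 1) with 4 group means over 12 libraries and a mean-variance trend, with Benjamini-Hochberg adjustment over all genes and a threshold of 0.05. A gene is called higher, or rose, where cKO lies above WT. edgeR 4.0.16 (quasi-likelihood; 24.5% of genes called), DESeq2 1.42.0 and voom on recovered reads, other scalings, a pseudocount of 5, a CPM filter, covariates, blocks and each library left out were alternatives. The code was tested on simulated data.

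Same-numbered WT and cKO libraries did not deviate together (correlations -0.106, 0.113 and -0.196 over genes), while same-numbered distal and proximal libraries of a genotype did, at 0.314, 0.352 and 0.474 in cKO and 0.353, 0.300 and 0.317 in WT. The deposited names share a number there.

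Genes were named by a rule: the 8 largest changes each way among called, non-overlapping genes of mean log2 CPM at least 2; up to 4 members of a list by p, and members called against the list's direction; any member of the BMP-induced, ligand, Wnt, ileal, regional, iron and general epithelial lists; and the 5 largest differences between segments each way. Apoa4, Cck, Cd3e, Chga, Cxcl13, Dclk1, Eno1, H2-Aa, Igha, Lyz1, Mki67, Ms4a1, Muc2, Olfm4, Pax5, Slc28a2 and Trpm5 fell outside it and were chosen after their values were seen. The ranking of differences between segments used called genes of the same mean log2 CPM, and both rankings left out predicted genes. A few genes chosen by the rule were left out of the text. Members and lists were chosen with earlier results of these data known. Of 844 listed genes 802 were measured.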

Additional observations from a re-analysis of the deposited data

Results flagged for a closer look

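For 20 of the genes named above, the change from WT to cKO differed between the distal and the proximal segment by the interaction test in limma. All values here are differences of log2 fold changes, distal minus proximal. Those that were positive were Pyy 4.02, Slc28a1 3.76, Ces2b 3.47, Acox2 2.94, Aadac 2.52, Gstm6 2.19, Gstk1 2.16, Ces1f 2.09, Cck 2.05, Pdk4 2.05, Sct 1.97 and Aldh1a1 1.81. Those that were negative were Spib -2.0, Slc40a1 -2.76, Cd28 -2.98, Nuggc -3.60, Gcsam -4.60, Mef2b -4.64, Rasal1 -4.85 and Ighg2b -6.27.

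A positive difference held different patterns. Sct and Pyy fell in both segments and fell less in the distal one. Gstk1 had log2 fold changes of -0.30 proximally and 1.87 distally, Ces1f of 0.24 and 2.33, and Cck of -0.79 and 1.26. All 20 were called with the library pair as a random block. Of the 20, 3 were called without WT distal 2, 5 without cKO distal 1, 13 without cKO distal 2, 14 without WT distal 1, 18 without cKO distal 3 and 20 without WT distal 3.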

How the results depend on the processing

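The number of genes called in the distal comparison was 4297, and it was 7678 with scaling to general epithelial genes, 1356 with the mitochondrial share as a covariate and 2160 without both cKO libraries numbered 1, an alternative chosen after seeing the data. Without 1 distal library it ran from 2466 to 4954. Under 9 further settings it stayed within 1.5 times. The replicate number did not pair WT with cKO libraries, and with it as a fixed block 4242 genes were called; with libraries of 1 genotype and number as a random block 4321 were, so neither block moved that count by over 1.5 times. The number of differences between segments was 99, and it was 434 with that random block, 94 with the number block, 59 in edgeR, 595 in DESeq2, 20 in voom, 38 with epithelial scaling, 168 with a pseudocount of 5, 7 to 266 without 1 library and 2 without both cKO libraries numbered 1. Among named genes the log2 fold change had the other sign under epithelial scaling for Aco1 -0.19, Bmp6 -0.57, Bmp7 -0.20, Bmpr1a -0.83, Ccnd1 -0.053, Cdx2 -0.67, Chga -0.43, Elf3 -0.12, Fabp6 -0.038, Gata4 -0.070, Sox9 -0.74, Txndc5 -0.16, Vil1 -0.55 and Xbp1 -0.063. Of these Aco1, Elf3, Gata4, Txndc5 and Xbp1 had been called. All other changes of sign were in genes not called. With the mitochondrial covariate they were Bmpr1a -0.26, Cdx2 -0.26 and Vil1 -0.21. Bmpr1a was -0.021 in edgeR, -0.025 in DESeq2, -0.028 in voom, -0.029 under TMM scaling and -0.087 with mitochondrial reads removed. Without both cKO libraries numbered 1 they were Bambi 0.21, Bmp5 0.048, Lgr5 0.0029 and Olfm4 0.21. Without 1 library the ranges that held both signs were Bambi -0.68 to 0.21, Bmp5 -0.75 to 0.048, Bmpr1a -0.080 to 0.19, Lgr5 -0.45 to 0.0029, Olfm4 -0.55 to 0.21, Sox9 -0.082 to 0.40 and Trpm5 -0.83 to 0.31. The cause of these changes was not tested. At the lowest depth a gene of a few reads cannot show a small change.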
